A study of Mus musculus with 2 samples.

Results

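Genes that mark muscle stem cells (MuSCs; satellite cells is the older name) or drive their path to muscle were followed in single cells of dystrophic mouse muscle. They are Pax7, Myf5, Myod1, Myog, Msc, Chodl, Cdh15, Megf10, Musk and Sdc4, taken by symbol, and 10 of 10 were found among the 24984 gene symbols of the files. MuSCs were chosen by counts alone: a cell with at least 500 detected genes in which at least 3 of the 9 genes other than Sdc4 had a unique molecular identifier (UMI, which stands for 1 captured RNA molecule) and in which Ptprc, Pdgfra and Cdh5, markers of blood, stromal and endothelial cells, were at 0. The rule gave 108 MuSCs of 4335 kept cells in Ctrl and 22 of 3329 in dKO.

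Live mononuclear cells were sorted from hind limb muscle after red cells had been lysed, and sequenced on a droplet platform (10x Chromium) as 1 library per group, each from several pooled mice. Both groups carried the mdx mutation, which removes dystrophin and models Duchenne muscular dystrophy, with the alleles Pax7CreERT2 and R26YFP. Ctrl mice were Yy1+/+ and dKO mice Yy1 f/f, so that Cre, driven from the Pax7 locus, deleted the transcription factor gene Yy1 in MuSCs once tamoxifen had been given to the young mice of both groups, about a month before collection. The labels give the tissue and the dKO status, and the genotypes come from the study's methods.

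MuSCs lie between the muscle fibre and its basal lamina and rebuild fibres after damage, which in mdx muscle recurs throughout life. Pax7 marks the resting and the dividing stem cell. Myf5 and Myod1 are basic helix-loop-helix (bHLH) factors that commit the cell to muscle, and Myog, a factor of the same family, comes on as the myoblast leaves the cell cycle and fuses. Msc encodes musculin, a bHLH repressor that competes with these factors. The other members act at the cell surface. Cdh15 encodes M-cadherin, an adhesion molecule between MuSC and fibre, Megf10 a transmembrane protein with EGF repeats that acts in MuSC proliferation, Chodl the lectin chondrolectin, Musk the receptor kinase through which agrin builds the neuromuscular junction, and Sdc4 the heparan sulphate proteoglycan syndecan-4, a co-receptor for growth factors.

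The share of MuSCs was thus 2.49% in Ctrl (2.05 to 3.0) and 0.661% in dKO (0.415 to 0.999). All intervals are 95% intervals, exact binomial for shares, exact Poisson for levels and exact conditional binomial for ratios, and they cover counting error only. With 1 library per group there is no replicate check, no test was run, and no difference can be separated from a difference between the libraries. The MuSCs held 2317381 UMIs in Ctrl and 601933 in dKO, at medians of 12721.5 and 15048.5 UMIs a cell against 8023 and 7958 in all other cells. Among 140 Ctrl and 32 dKO cells with at least 3 of the 9 genes, 32 and 10 were left out for a UMI of an excluded marker. With the excluded markers at 0, cells with exactly 3 of the genes numbered 33 in Ctrl and 5 in dKO, and cells that missed by 1 gene numbered 28 and 19. The libraries shared 7 cell barcodes, 0 of them in MuSCs.

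Yy1 was examined first, as the check of the labels. In Ctrl MuSCs 371 Yy1 UMIs were counted in 81 of 108 cells, or 160 CPM (counts of the gene scaled to 1000000 UMIs of all genes in the same cells). In dKO MuSCs 5 were counted in 2 of 22 cells, or 8.31 CPM, which gave a dKO to Ctrl ratio of 0.0519 (0.0167 to 0.122). In cells with markers of fibro/adipogenic progenitors (FAPs), which form the connective tissue between fibres, the ratio was 1.05 (0.988 to 1.11). Markers of other cells were not absent from MuSCs. The 6 muscle fibre markers summed to 438 CPM in Ctrl MuSCs and 193 in dKO MuSCs, above the 61.1 and 33.4 of all other cells, and 7 and 3 MuSCs held at least 3 of them. The 6 tenocyte markers summed to 466 and 390 CPM against 1875 and 1943 in all other cells, and 8 and 2 MuSCs held at least 3. The 6 FAP markers summed to 92.3 and 58.1 CPM against 2152 and 2491, with Pdgfra at 0 by the rule, and those of neutrophils to 30.6 and 101. The T cell markers that the files hold were at 0 in both. Without the MuSCs that held 3 markers of another list, 90 Ctrl and 15 dKO MuSCs were left, and there the log2 ratio of dKO to Ctrl was 0.97 for Myf5 (0.57 to 1.36), -1.26 for Cdh15 (-1.83 to -0.74), -0.37 for Sdc4 (-0.61 to -0.14), -0.90 for Megf10 (-2.01 to 0.043) and -0.45 for Myod1 (-0.90 to -0.020). Megf10 was then no longer lower beyond counting error and Myod1 was. The removal is not independent of the members, since muscle fibre markers are genes of differentiated muscle, and it took 4 of 4 dKO MuSCs with a Myog UMI and left 20 of 29 in Ctrl.

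In MuSCs, Myf5 stood higher in dKO than in Ctrl, as did the sum of Myog on the strength of 1 cell, while Cdh15, Megf10 and Sdc4 stood lower and Pax7, Myod1, Msc, Chodl and Musk did not differ beyond counting error. Each of the 10 genes had 20 or more UMIs in MuSCs of the 2 libraries together, the minimum for a call. At 2-fold or more with an interval that did not hold 1, 0 of 10 members were called higher, against 4.54% of the 8927 genes with 20 or more UMIs, and 2 of 10, Cdh15 and Megf10, were called lower, against 5.79%. By the interval alone, 2 of 10 were higher, against 11.7% of all genes, and 3 of 10 were lower, against 11.6%. Both shares are small numbers of genes, and the median log2 ratio of the 10 members was -0.16 against -0.02 over all genes.

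**Figure D1:**
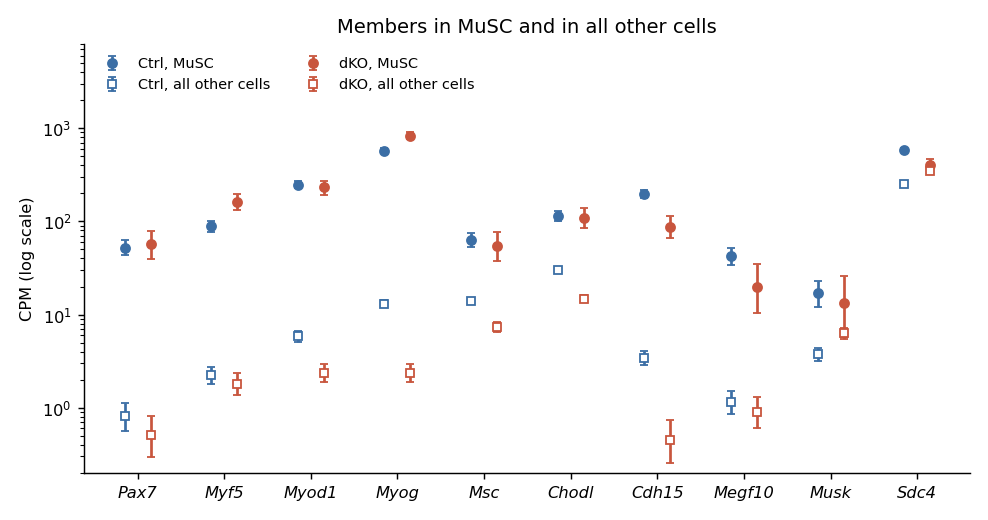
Level of each member in MuSCs (filled circles) and in all other kept cells (open squares) of the Ctrl library (blue) and the dKO library (red), as CPM on a log axis, with exact Poisson 95% intervals. The MuSC intervals of Myf5, Myog, Cdh15 and Sdc4 do not overlap between libraries, those of Megf10 meet at their ends, and Sdc4 in dKO MuSCs (407) lies close to the other dKO cells (347).

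Pax7 (chromosome 4, 139737062 to 139833528, minus strand; positions are GENCODE genes on GRCm38, matched by symbol) had 121 UMIs in 63 of 108 Ctrl MuSCs and 34 in 12 of 22 dKO MuSCs. Its level was 52.2 CPM in Ctrl (43.3 to 62.4) and 56.5 in dKO (39.1 to 78.9), a ratio of 1.08 (0.717 to 1.59). The Pax7 transcript per UMI of the remaining dKO MuSCs was therefore within counting error of that in Ctrl, and a difference of up to 1.59-fold would not have been seen at this depth.

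The determination factors differed from each other. Myf5 (chromosome 10, 107482908 to 107486134) had 205 UMIs in 58 Ctrl MuSCs and 98 in 17 dKO MuSCs, 88.5 CPM (76.8 to 101) and 163 CPM (132 to 198). Its ratio was 1.84 (1.43 to 2.35). One dKO cell gave 26 of the 98 UMIs and one Ctrl cell 27 of the 205, and without the top cell of each library the ratio was 1.61 (1.20 to 2.12). Myod1 (chromosome 7, 46376474 to 46379099) stood at 248 CPM in Ctrl (228 to 269) and 231 in dKO (194 to 273), a ratio of 0.931 (0.768 to 1.12). Of its 139 dKO UMIs, 59 lay in 1 cell, and without the top cells the ratio was 0.663 (0.517 to 0.841). Leaving out the top cells takes 1 of 22 dKO cells but 1 of 108 Ctrl cells, here 42.4% of the dKO UMIs and 12.5% of the Ctrl UMIs. The step thus tends to lower the dKO to Ctrl ratio of any gene, and it did not settle whether Myod1 differed. A UMI of Myf5 and a UMI of Myod1 were found in the same cell in 12 of 22 dKO MuSCs (54.5%, 32.2 to 75.6) and 25 of 108 Ctrl MuSCs (23.1%, 15.6 to 32.2). With every cell reduced to 2000 UMIs, given as the share expected over all draws, the shares were 8.0% (0.792 to 27.7) and 2.70% (0.542 to 7.79), and their intervals overlapped.

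Myog (chromosome 1, 134289989 to 134292548) showed how far single cells carried a sum. It had 1334 UMIs in 29 Ctrl MuSCs and 498 in 4 dKO MuSCs, and the 4 dKO cells held 7, 22, 51 and 418. Summed, the level was 576 CPM in Ctrl (545 to 607) and 827 in dKO (756 to 903), a ratio of 1.44 (1.29 to 1.59). Without the top cell of each library it was 0.308 (0.242 to 0.386), which turned the direction. The cell with 418 Myog UMIs had 65344 UMIs in all, 59 of Myod1, 116 of Mymk and 99 of Mymx, which encode the fusion proteins myomaker and myomixer, 607 of the actin gene Acta1, and 0 of Yy1. The share of MuSCs with a Myog UMI was 18.2% in dKO (5.19 to 40.3) and 26.9% in Ctrl (18.8 to 36.2). At 2000 UMIs it was 14.2% (3.18 to 35.6) and 18.7% (11.9 to 27.4), against 0.0682% and 0.370% of all other cells, and the intervals overlapped. The 4 dKO cells with Myog each held 3 or more markers of another list. Without such cells a Myog UMI was found in 0 of 15 dKO MuSCs (up to 21.8%) and 20 of 90 Ctrl MuSCs (22.2%, 14.1 to 32.2). The lists include muscle fibre genes, so that this removal depends on the state of the cell that is being counted, and no difference is read from it. Only 3 dKO MuSCs held 3 or more muscle fibre markers, so not all 4 cells were removed for those genes.

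The promoters of Myog and Cdh15 are shown because bHLH factors of this family bind the E-box, spelt CANNTG, and because the level of the first rested on so few cells and the second had the lowest ratio of summed UMIs among the members. Each run is the 250 bases before the transcript start, from RefSeq on GRCm38.p6, written 5′ to 3′ in the direction of the gene with E-boxes in capitals. Myog is chr1:134289754-134290003 and Cdh15 is chr8:122848124-122848373, both on the plus strand.
Myog: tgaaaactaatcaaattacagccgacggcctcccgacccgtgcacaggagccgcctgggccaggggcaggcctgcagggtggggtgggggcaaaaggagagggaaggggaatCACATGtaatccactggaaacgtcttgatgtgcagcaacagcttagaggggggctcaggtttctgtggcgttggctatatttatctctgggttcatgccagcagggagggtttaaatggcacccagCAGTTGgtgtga
Cdh15: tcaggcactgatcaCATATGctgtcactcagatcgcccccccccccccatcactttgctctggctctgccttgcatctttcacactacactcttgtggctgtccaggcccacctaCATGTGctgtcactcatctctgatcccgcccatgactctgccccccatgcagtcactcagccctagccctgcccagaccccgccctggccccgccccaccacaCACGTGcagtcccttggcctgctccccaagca
The Myog run holds 2 E-boxes, which begin 138 and 12 bases before the start, and the Cdh15 run 3, at 236, 135 and 32 bases. The motif reads the same on both strands, and 66.2% of all 32851 promoters in the table hold it in this window, so a match is a description of the letters and not of a bound site. Promoters of 7 members were read, and 4 of the 7 hold an E-box, Chodl with 4 and Musk with 3 besides these. The windows of Pax7, Myf5 and Sdc4 hold none of these letters.

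Msc (chromosome 1, 14753346 to 14755992), the repressor, had 147 UMIs in 47 Ctrl MuSCs and 33 in 10 dKO MuSCs, 63.4 CPM (53.6 to 74.6) and 54.8 (37.7 to 77.0), a ratio of 0.864 (0.574 to 1.27). One dKO cell held 14 of the 33, and without the top cells, a step that takes more from dKO, the ratio was 0.553 (0.323 to 0.898). The gene overlaps the antisense gene Gm9947, and the sources used here do not say whether counting used the strand.

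Among the surface members Cdh15 (chromosome 8, 122847966 to 122867397) and Megf10 had the lowest ratios of summed UMIs, with intervals that overlapped. Cdh15 had 454 UMIs in 89 of 108 Ctrl MuSCs and 53 in 16 of 22 dKO MuSCs, 196 CPM (178 to 215) and 88.0 CPM (66.0 to 115), a ratio of 0.449 (0.332 to 0.598). The highest cell held 18 UMIs in Ctrl and 12 in dKO, and the median over cells with the transcript was 3 and 2 UMIs. Without the top cells the ratio was 0.398 (0.282 to 0.549). The gene overlaps Gm20388 on the same strand, and the sources used here do not say how reads there were counted. Megf10 had 98 UMIs in 59 Ctrl MuSCs and 12 in 9 dKO MuSCs, 42.3 CPM (34.3 to 51.5) and 19.9 (10.3 to 34.8), a ratio of 0.471 (0.236 to 0.861). No MuSC held more than 7 Megf10 UMIs in Ctrl or 3 in dKO.

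Sdc4 (chromosome 2, 164424247 to 164443887, minus strand), the member that did not choose the cells, had 1355 UMIs in 95 Ctrl MuSCs and 245 in 19 dKO MuSCs. Its level was 585 CPM (554 to 617) and 407 CPM (358 to 461), a ratio of 0.696 (0.605 to 0.798). Chodl (chromosome 16, 78930948 to 78951733) stood at 115 CPM (102 to 130) and 110 CPM (84.8 to 139), a ratio of 0.952 (0.716 to 1.25). Musk (chromosome 4, 58285960 to 58374303) had 39 UMIs in Ctrl and 8 in dKO, 16.8 CPM (12.0 to 23.0) and 13.3 (5.74 to 26.2). Its ratio was 0.790 (0.319 to 1.71), and with so few UMIs a difference in either direction within this interval was not detectable.

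Without the 7.5% of cells with most UMIs in each library, which left 72 Ctrl and 14 dKO MuSCs, the log2 ratio was -0.30 for Cdh15 (-0.87 to 0.23), -0.46 for Megf10 (-1.52 to 0.47) and -0.15 for Sdc4 (-0.45 to 0.15), so these members were no longer lower beyond counting error. Myf5 then had a log2 ratio of 1.00 (0.56 to 1.43).

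**Figure D2:**
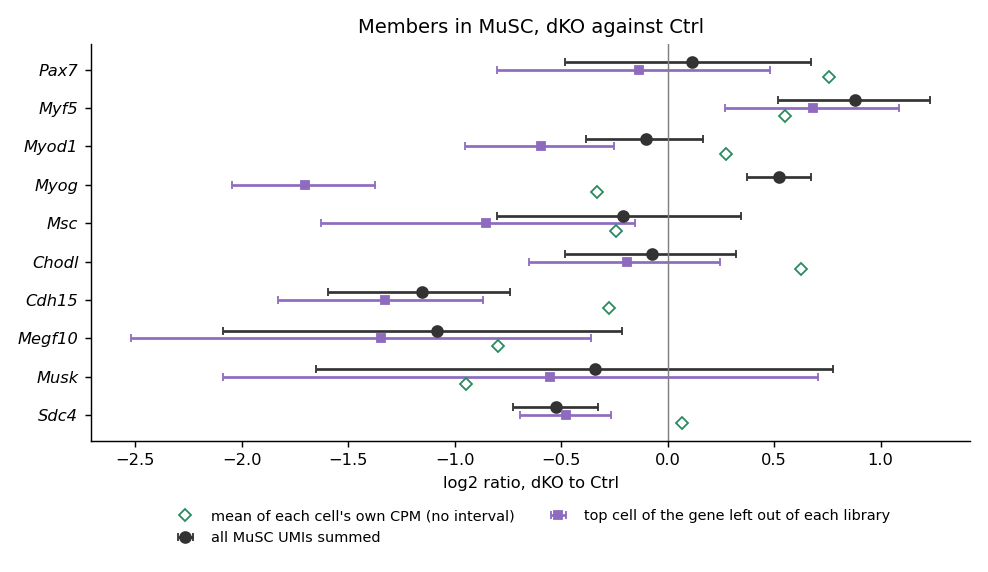
log2 ratio of dKO to Ctrl in MuSCs for each member, from all UMIs summed (black circles), with the cell that held most UMIs of the gene left out of each library (purple squares), both with exact 95% intervals, and from the mean of each cell's own CPM (open green diamonds, no interval). Myf5 lies above 0 and Cdh15 and Megf10 below 0 in all 3, while Myog lies at 0.52, -1.70 and -0.33 and Sdc4 at -0.52, -0.48 and 0.07.

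How the cells were weighted mattered for several members. The sums weight a cell by its UMIs, and a mean of each cell's own CPM weights cells alike. By that mean, Cdh15 was 255 CPM in Ctrl and 210 in dKO, Megf10 91.1 and 52.5, and Myf5 163 and 239, each in the same direction as the sum. Pax7 was 133 and 224 CPM and Chodl 347 and 535, so that by this mean both stood over 1.5 times higher in dKO, while their sums were within counting error. Sdc4 was 875 and 918 and Myog 518 and 411, each in the opposite direction. The split of MuSCs at 10000 UMIs, chosen after the values were seen, shows where the differences lay. A cell with few UMIs enters by 3 of the 9 rule genes all the same, which can raise the CPM of those genes in such cells in both libraries, so their values in this split are a description, and of the members compared only Sdc4 was not used by the rule. In the cells with fewer UMIs, 44 in Ctrl and 9 in dKO, the ratio of Cdh15 was 1.02 (0.538 to 1.80) and that of Sdc4 1.07 (0.819 to 1.38). In the 64 Ctrl and 13 dKO cells at or over 10000 UMIs it was 0.371 (0.258 to 0.518) for Cdh15 and 0.617 (0.521 to 0.726) for Sdc4. Cdh15 and Sdc4 were thus lower in dKO in the cells with many UMIs and not detectably so in the others, and the difference between these groups of cells was not tested. Myf5 was 1.37 (0.694 to 2.54) in the cells with fewer UMIs and 1.99 (1.51 to 2.61) in those with more. Yy1 had 46 UMIs in Ctrl and 5 in dKO in the cells with fewer UMIs, a ratio of 0.478 (0.148 to 1.20), which holds 1. In the cells with more it had 325 and 0. The loss of Yy1 was thus beyond counting error only in the cells with more UMIs.

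Chodl differed between libraries in both groups of cells. In cells under 10000 UMIs it stood at 552 CPM in Ctrl, in 31 of 44 cells, and at 1079 CPM in dKO, in 8 of 9 cells, a ratio of 1.956 (1.42 to 2.67). In cells at or over 10000 UMIs it stood at 63.7 CPM in Ctrl, from 132 UMIs in 18 of 64 cells, and at 11.0 CPM in dKO, from 6 UMIs in 4 of 13 cells, a ratio of 0.172 (0.0622 to 0.385). The ratio thus lay on opposite sides of 1 in cells of few and of many UMIs, for a gene that the rule used to choose the cells. Pax7 had ratios of 1.71 (0.949 to 2.95) and 0.790 (0.421 to 1.39), both of which hold 1.

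**Figure D3:**
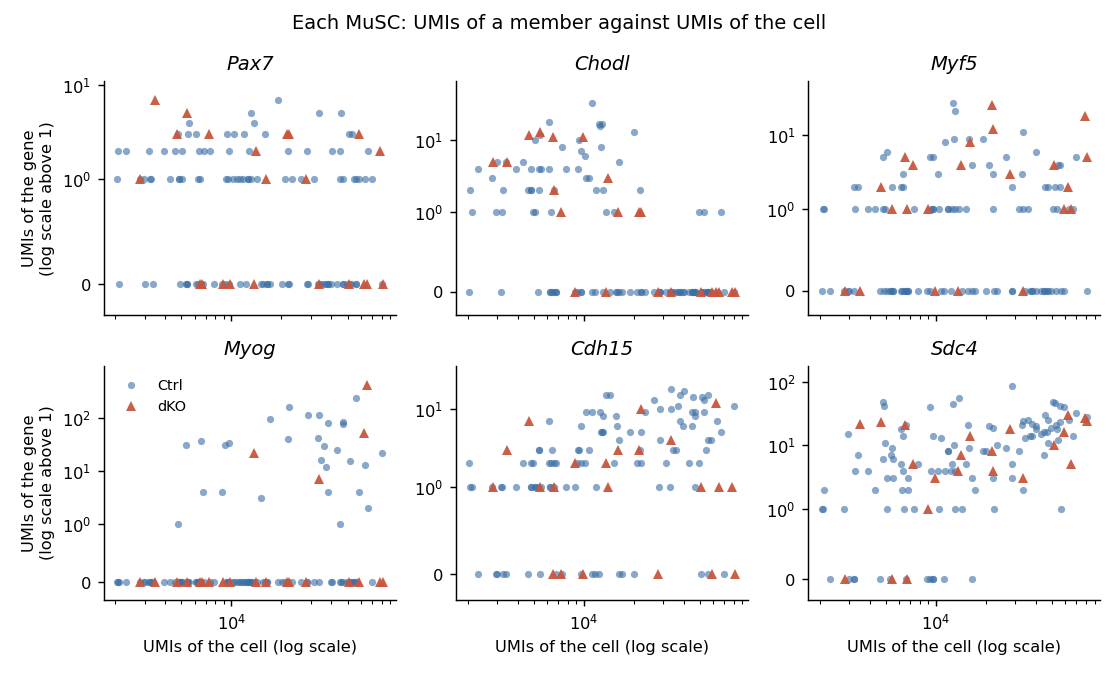
UMIs of Pax7, Chodl, Myf5, Myog, Cdh15 and Sdc4 in each MuSC (vertical axis, log scale above 1 and linear from 0 to 1) against all UMIs of that cell (horizontal log axis), for 108 Ctrl cells (blue circles) and 22 dKO cells (red triangles). Chodl sits at or near 0 in most cells with many UMIs, the 4 dKO cells with Myog lie at 7 to 418 UMIs, and dKO cells with many UMIs lie low for Cdh15 apart from 2 with 10 and 12.

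Within Ctrl, the 29 MuSCs with a Myog UMI were set beside the 79 without, at median depths of 34514 and 10735 UMIs. A cell with Myog needs only 2 further rule genes and a cell without needs 3, so the rule itself presses the other rule genes down in the first, and their values are a description. Msc stood at 3.11 CPM with Myog and 106 without, Chodl at 4.15 and 194, Pax7 at 10.4 and 82.1 and Myf5 at 19.7 and 138. Myod1 went the other way, at 459 CPM with Myog and 97.6 without, a ratio of 4.70 (3.86 to 5.76). Megf10 (40.4 and 43.6 CPM) and Musk (17.6 and 16.3) were within counting error, and Cdh15 had a ratio of 0.698 (0.571 to 0.852). Sdc4, which the rule did not use, had 376 CPM with Myog and 734 without, a ratio of 0.513 (0.453 to 0.579). Its level also differed by depth, at 1263 CPM in Ctrl MuSCs under 10000 UMIs and 505 in those at or over. Of the 29 cells with Myog, 22 lay at or over 10000 UMIs, so depth and Myog cannot be told apart in this ratio.

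Of the 9 members other than Myog, 1 had an interval above 1 and 6 below, against 12.1% and 15.3% of the 8316 genes with 20 or more UMIs in these cells. Differentiation and fusion genes were higher with Myog in 20 of 20 cases. Mymk had 282 CPM with Myog and 8.87 without, and the troponin gene Tnnt2 597 and 5.18. The actin gene Actc1 had 699 UMIs in cells with Myog and 0 in cells without. The 19 other satellite cell genes went both ways, with 10 lower with Myog, 3 higher and 6 within counting error. Among the 10 were the Notch target Heyl, with 6.22 CPM with Myog and 96.9 without, and Calcr, which encodes the calcitonin receptor of resting MuSCs, with 0 UMIs with and 40 without. The 3 higher were the intermediate filament gene Des (2.11, 1.96 to 2.28), the integrin gene Itga7 (1.52, 1.20 to 1.91) and the adhesion gene Ncam1 (1.49, 1.24 to 1.80). Of the 14 partners and inhibitors of the bHLH factors 7 were higher with Myog and 3 lower, with Mef2c, a partner, at 122 CPM with Myog and 3.70 without. The inhibitors went both ways, with Id3 at 306 and 715 CPM, while Id1 (3.50, 2.69 to 4.60) and Id2 (1.73, 1.32 to 2.26) were higher with Myog. Of the 16 cell cycle genes 5 were higher with Myog, among them Top2a (2.14, 1.74 to 2.64), 2 were lower and 9 were within counting error. Both Pax7 and Myog were found in 6 of 108 Ctrl MuSCs (5.56%, 2.07 to 11.7), or an expected 0.370% at 2000 UMIs (up to 4.08). In dKO 0 of 22 cells held both, which allows a share of up to 15.4%.

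**Figure D4:**
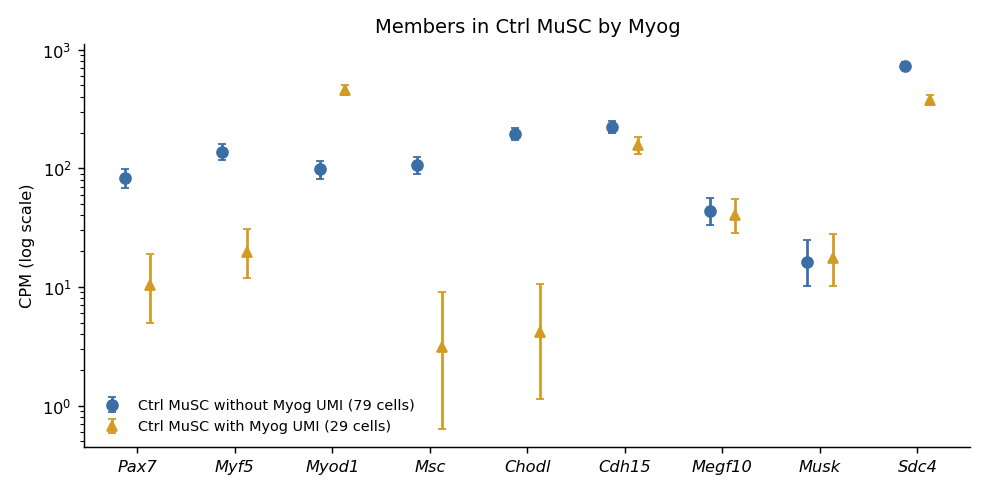
Level of the members other than Myog in the 79 Ctrl MuSCs without a Myog UMI (blue circles) and the 29 with one (yellow triangles), as CPM on a log axis with exact Poisson 95% intervals. Myod1 is higher with Myog (459 against 97.6), Pax7, Myf5, Msc, Chodl, Cdh15 and Sdc4 are lower, and Megf10 and Musk overlap.

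In the MuSCs without Myog, 79 in Ctrl and 18 in dKO, the libraries were compared again. Myf5 had a ratio of 1.62 (1.25 to 2.08), Cdh15 of 0.355 (0.242 to 0.508) and Sdc4 of 0.648 (0.555 to 0.755). Megf10 had 0.591 (0.280 to 1.14), which held 1, as did Pax7 at 0.970 (0.640 to 1.44) and Myod1 at 1.22 (0.868 to 1.70). In the cells with Myog only 4 dKO cells stood against 29 in Ctrl, and there Sdc4 had 0.638 (0.452 to 0.880) and Cdh15 0.694 (0.407 to 1.12).

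Lists of genes around the members were compared in the same MuSCs, where 4.54% of all genes were called higher and 5.79% lower. Of 19 other satellite cell genes with enough UMIs, 0 were called higher and 4 lower: Calcr (40 UMIs in Ctrl, 3 in dKO), the sialomucin gene Cd34 (42 and 3), Heyl (137 and 12) and the transcription factor gene Sox8 (28 and 1). Their ratios lay between 0.137 and 0.337. The adhesion genes Vcam1 and Itga7 and Des were higher by less than 2-fold, at 1.29 (1.06 to 1.56), 1.27 (1.00 to 1.60) and 1.15 (1.06 to 1.25), but without the top cell of each library the intervals of Vcam1 (0.996 to 1.51), Itga7 (0.966 to 1.59) and Des (0.956 to 1.15) held 1. The integrin gene Itgb1, which is also among the syndecan co-receptors below, had 0.993 (0.852 to 1.15). The caveolin gene Cav1 had 0.524 (0.409 to 0.664), and the median log2 ratio of the list was -0.01. Without the 7.5% of cells with most UMIs, 1 of the genes was called higher and 0 lower.

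Of 14 partners and inhibitors of the bHLH factors, 0 were called higher and 3 lower, with a list median of -0.59. The 3 were Id1, an inhibitor that binds bHLH partners, at 121 CPM in Ctrl and 46.5 in dKO (ratio 0.385, 0.251 to 0.569), and the bHLH repressors Bhlhe40 (0.308, 0.156 to 0.554) and Bhlhe41 (0.456, 0.201 to 0.912). Id3, with the most UMIs of the list, had 545 and 297 CPM, a ratio of 0.546 (0.464 to 0.639). The bHLH partner gene Tcf4 had 0.738 (0.593 to 0.910) and Mef2a, whose product binds beside the bHLH factors, 0.941 (0.764 to 1.15). One dKO cell held 40.8% of the dKO UMIs of Mef2a, and without the top cell of each library its ratio was 0.660 (0.507 to 0.850). In total 8 of the 14 had an interval below 1 and 0 above, against 11.6% and 11.7% of all genes. Without the 7.5% of cells with most UMIs, 0 were called in either direction.

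The differentiation and fusion genes went both ways, with 3 of 20 called higher and 3 lower and a median of 0.23. Mymk (2.53, 2.10 to 3.06), the embryonic myosin light chain gene Myl4 (2.87, 2.49 to 3.30) and the perinatal myosin gene Myh8 (3.50, 2.34 to 5.23) were the 3 higher, but 1 dKO cell held 62.0%, 61.5% and 100% of their dKO UMIs. Without the top cell of each library the ratio of Mymk was 1.42 (1.07 to 1.87) and that of Myl4 2.14 (1.73 to 2.64), and no dKO UMI of Myh8 was left. Acta1 had 1.89 (1.76 to 2.03) and the titin gene Ttn 0.881 (0.816 to 0.949). The counts depended on the gate, with 0 higher and 8 lower when 4 rule genes were needed, and 0 and 14 without the MuSCs that held 3 markers of another list, a removal that took each dKO cell with Myog and from which no difference is read. The 3 lower were the slow troponin gene Tnnt1 (140 UMIs in Ctrl, 3 in dKO), the cell cycle inhibitor gene Cdkn1c, at 512 CPM in Ctrl and 99.7 in dKO (0.195, 0.148 to 0.252), and Gal, which encodes the neuropeptide galanin. Gal had 1506 CPM in Ctrl, in 66 cells, and 253 in dKO, in 5 cells, a ratio of 0.168 (0.142 to 0.197). One dKO cell held 57.9% of the dKO UMIs of Gal and 1 held 53.3% of those of Cdkn1c. Without the top cells, a step that tends to lower ratios, they had 0.0933 (0.0717 to 0.120) and 0.119 (0.0788 to 0.173). Cdkn1a, the other cell cycle inhibitor gene named in this list, went the opposite way, at 592 CPM in Ctrl and 1145 in dKO. Its ratio was 1.93 (1.76 to 2.12), and 1.73 (1.56 to 1.92) without the top cells.

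Around the surface members, 1 of 7 partners of Musk at the junction was called lower and 0 higher. It was the adaptor gene Dok7 (0.310, 0.0974 to 0.764), of whose 5 dKO UMIs 1 cell held 80.0%. The acetylcholine receptor genes Chrna1, Chrnd and Chrng had 1.15 (0.989 to 1.32), 0.528 (0.279 to 0.928) and 1.53 (1.09 to 2.14), and Rapsn, which encodes the protein that clusters the receptor, 0.916 (0.656 to 1.26). The direction of Chrng rested on 1 dKO cell with 62.7% of the UMIs, without which, and without the top Ctrl cell, it was 0.762 (0.442 to 1.25), and Chrna1 was then 0.782 (0.649 to 0.937). Of 10 syndecans and co-receptors 2 were called lower and 0 higher, namely Sdc1 (89 UMIs and 3, with a ratio of 0.13, 0.0263 to 0.392) and the fibronectin gene Fn1 (0.471, 0.373 to 0.588), of which 1 dKO cell held 75.0% of the dKO UMIs. The heparan sulphate proteoglycan Gpc1, at 206 CPM in each library, had a ratio of 1.00 (0.815 to 1.22), against 0.696 for Sdc4, and the perlecan gene Hspg2 had 1.31 (1.03 to 1.65), which without the top cells was 1.24 (0.964 to 1.57) and held 1.

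Of 16 cell cycle genes 5 were called higher and 0 lower: Mki67 (3.07, 2.55 to 3.69), Top2a (2.21, 1.86 to 2.61), Cdk1 (2.29, 1.79 to 2.93), Ccnb2 (2.13, 1.58 to 2.85) and Cdc20 (3.13, 2.32 to 4.23). Mki67 had a UMI in 27 of 108 Ctrl MuSCs and 10 of 22 dKO MuSCs. One dKO cell held 57.8% of the dKO UMIs of Cdc20, 42.5% of those of Cdk1 and 39.7% of those of Ccnb2. Without the top cell of each library, which was tried after the values were seen, Cdc20, Cdk1 and Ccnb2 fell under 2-fold, at 1.77 (1.16 to 2.65), 1.83 (1.34 to 2.49) and 1.58 (1.09 to 2.25), while Mki67 had 2.52 (2.04 to 3.12) and Top2a 2.59 (2.13 to 3.14). The number called higher also depended on the gate, with 2 of 16 when 2 rule genes sufficed or the excluded markers were allowed, 1 with 4 rule genes, and 8 without the 7.5% of cells with most UMIs. The cyclin gene Ccnd1 had 0.642 (0.547 to 0.751) and its kinase gene Cdk4 0.926 (0.777 to 1.10).

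The rule chose MuSCs by 9 of the members, so their level there against all other cells is a description. In Ctrl 10 of 10 members were 2-fold or more higher in MuSCs than in all other cells, against 15.2% of all genes, and in dKO 8 of 10, against 15.3%. The 2 below the mark in dKO were Sdc4 and Musk, at 2.11-fold with an interval that held 1 (0.901 to 4.25). Sdc4, which the rule did not use, was 2.35-fold higher in MuSCs in Ctrl (2.22 to 2.49) and 1.17-fold in dKO (1.03 to 1.33). Both sides of this ratio differed, since the level in MuSCs was 585 CPM in Ctrl and 407 in dKO while that in all other cells was 249 CPM (244 to 254) and 347 CPM (341 to 354). MuSCs held 66.2% to 77.6% of the UMIs of Pax7, Myf5, Myod1, Myog, Cdh15 and Megf10 in Ctrl, but 19.6% of Msc, 17.1% of Chodl, 19.4% of Musk and 11.2% of Sdc4. In dKO they held 62.0% to 86.3% of Pax7, Myf5, Myod1, Myog and Cdh15, but 28.6% of Megf10, 11.9% of Msc, 11.8% of Chodl, 3.70% of Musk and 2.09% of Sdc4.

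Most of the remaining UMIs of Msc, Chodl and Musk sat in stromal and tendon cells. Classes were called where a cell had at least 3 markers of 1 list and more than of any other, and are written as "like". FAP-like cells numbered 1164 in Ctrl and 1199 in dKO and tenocyte-like cells 133 and 98. FAP-like cells held 72.8% of the Msc UMIs in Ctrl and 80.5% in dKO, and 66.2% and 89.4% of the Musk UMIs. Tenocyte-like cells held 64.6% and 64.5% of the Chodl UMIs. Cells of no class held 3.90% and 9.68% of the Chodl UMIs, 4.94% and 3.97% of those of Msc and 8.46% and 2.31% of those of Musk.

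In FAP-like cells Msc was lower in dKO and Musk higher. Msc had 545 UMIs in 247 Ctrl cells and 223 in 137 dKO cells, 31.8 CPM (29.2 to 34.6) and 12.8 (11.2 to 14.6), a ratio of 0.402 (0.342 to 0.470). Musk had 133 UMIs in 114 Ctrl cells and 193 in 153 dKO cells, 7.77 CPM (6.50 to 9.21) and 11.1 (9.56 to 12.7), a ratio of 1.42 (1.14 to 1.79). Among the 8 members with 20 or more UMIs in FAP-like cells, 2 were higher by the interval, Musk and Sdc4, against 12.3% of all genes there, and 6 lower, against 22.2%. Of the 6, Myf5, Myod1, Myog and Megf10 had at most 203 UMIs in either library, and these sat in few cells: the 203 Myog UMIs of Ctrl lay in 19 of 1164 cells, 150 of them in 1 cell. In endothelial-like cells, which should lack Myog, 6 of 539 cells (1.11%) held a UMI at a median depth of 5159, against 1.63% of FAP-like cells at 12448.5, and no difference in these 4 genes was read from so few cells.

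FAP-like cells are of several kinds. They were split by a UMI of Cxcl5, a chemokine gene of activated FAPs, or of Pi16, a gene of progenitor-like fibroblasts, after the class values had been seen. With a Cxcl5 UMI (195 and 260 cells) the ratio of Msc was 0.291 (0.20 to 0.418), with Pi16 and no Cxcl5 (500 and 497 cells) 0.479 (0.371 to 0.614), and with neither (469 and 442 cells) 0.434 (0.334 to 0.559). Sdc4 had 1.34 (1.25 to 1.43), 1.33 (1.25 to 1.42) and 1.28 (1.19 to 1.38) in the same order. Musk had 1.20 (0.715 to 2.04), 1.63 (1.15 to 2.32) and 1.45 (0.991 to 2.14), so the interval excluded 1 in the Pi16 group alone.

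By the interval, Chodl was lower in dKO in both stromal classes. In tenocyte-like cells it had 1010 UMIs in 67 Ctrl cells and 360 in 42 dKO cells, 730 CPM (685 to 776) and 374 (336 to 415), a ratio of 0.512 (0.453 to 0.578). In FAP-like cells it had 10.6 CPM in 38 cells and 3.50 CPM in 19 cells, a ratio of 0.331 (0.243 to 0.444). Endothelial-like cells of Ctrl had 8.12 CPM (5.44 to 11.7), from 29 UMIs of which 1 cell held 21, and the FAP-like interval (9.09 to 12.2) overlapped it. Those of dKO held 1 UMI. A difference in FAP-like cells thus cannot be told from one in the background. The FAP cells with Cxcl5 had only 9 and 16 Chodl UMIs, a ratio of 1.35 (0.561 to 3.46).

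Sdc4 was found in every large class, and the direction of its difference was not the same in them. T cell-like cells had a low level, 31.0 CPM in Ctrl and 27.3 in dKO, and at 2000 UMIs 5.44% (1.02 to 15.8) and 5.22% (1.42 to 12.9) of them held a UMI. The share was 6.12% (4.14 to 8.65) and 9.63% (5.89 to 14.7) in endothelial-like cells, at median depths of 5159 and 4827 against 3508.5 and 3629, and these intervals overlapped. The levels did not: endothelial-like cells had 83.2 CPM (74.0 to 93.2) in Ctrl and 68.4 (54.9 to 84.1) in dKO. T cell-like cells reached at most 63.9 and 50.1 by the interval, from 7 and 10 UMIs. Expression in endothelial-like cells was thus above that of T cell-like cells by level but not by share. Among FAP-like cells it had 260 CPM in Ctrl and 349 in dKO, a ratio of 1.34 (1.29 to 1.40). The class with monocyte and macrophage markers (MO/MP-like, 1321 cells in Ctrl and 993 in dKO) had 236 and 382 CPM, a ratio of 1.62 (1.54 to 1.70). In tenocyte-like cells the ratio was 0.927 (0.830 to 1.03) and in endothelial-like cells, whose level was 83.2 and 68.4 CPM, 0.822 (0.641 to 1.05). It was 1.25 (1.02 to 1.53) in the smooth muscle and pericyte-like class and 0.293 (0.214 to 0.397) in the 12 Ctrl and 14 dKO Schwann cell-like cells, which are too few to describe a class. It was also lower in the small dendritic cell-like (0.283, 0.181 to 0.429) and B cell-like classes (0.607, 0.433 to 0.840) and higher in cells of no class (1.53, 1.40 to 1.68). Ordered by level in Ctrl among the 6 classes plotted, tenocyte-like cells (600 CPM, 560 to 643) and MuSCs (585 CPM, 554 to 617) did not differ beyond counting error, then came smooth muscle and pericyte-like cells (415), FAP-like cells (260), MO/MP-like cells (236) and endothelial-like cells (83.2). In dKO, MuSCs (407, 358 to 461) lay below tenocyte-like cells (557, 511 to 606), and their interval overlapped those of smooth muscle and pericyte-like cells (520, 438 to 613) and MO/MP-like cells (382, 370 to 395), and met that of FAP-like cells (349, 341 to 358) at its end.

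**Figure D5:**
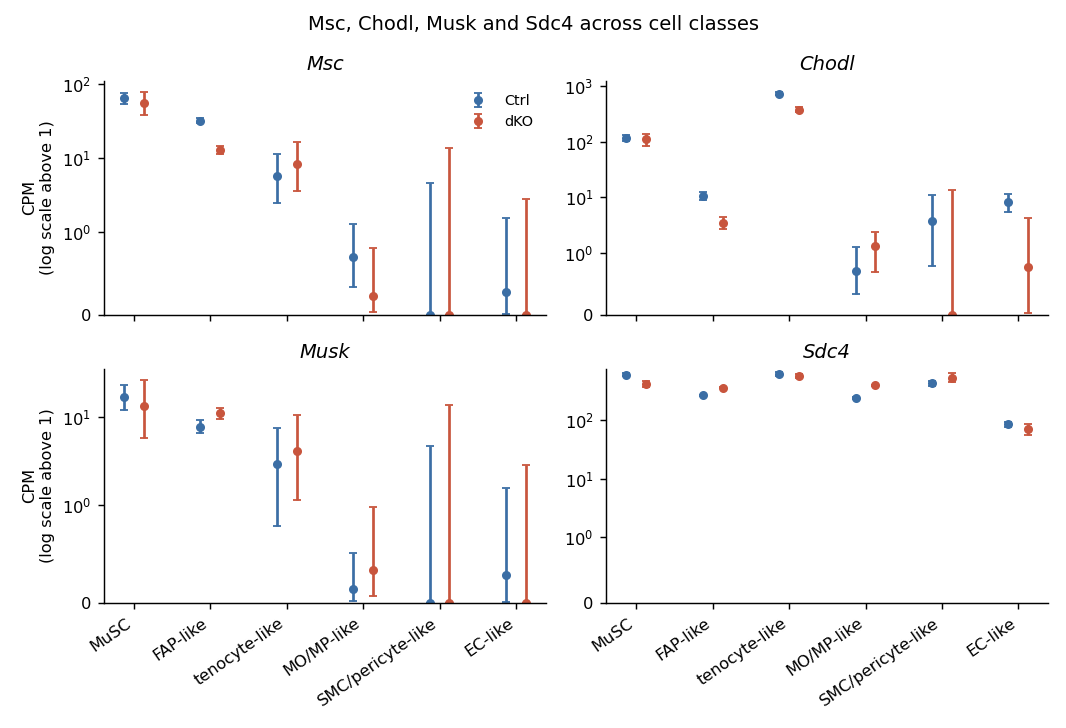
Level of Msc, Chodl, Musk and Sdc4 in MuSCs and 5 other cell classes of the Ctrl (blue) and dKO (red) libraries, as CPM (log scale above 1, linear from 0 to 1), with exact Poisson 95% intervals. Msc is lower in dKO in FAP-like cells, Chodl in tenocyte-like and FAP-like cells, and Sdc4 is lower in dKO in MuSCs but higher in FAP-like and MO/MP-like cells.

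Over all kept cells, with no class applied, 8 of 10 members were lower in dKO by the interval, against 28.5% of all genes, and 2 higher, Musk and Sdc4, against 16.4%. Such sums follow both the number of MuSCs and the level in each. Cdh15 had the lowest ratio, 0.152 (0.117 to 0.196), from 602 and 68 UMIs. A Myog UMI was found in 83 of the 4335 cells of Ctrl (1.91%, 1.53 to 2.37) and in 9 of the 3329 of dKO (0.270%, 0.124 to 0.513), and a Pax7 UMI in 81 (1.87%, 1.49 to 2.32) and 19 (0.571%, 0.344 to 0.890).

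By the correlation of log2 CPM profiles over 20 profiles, 10 classes in each library, the genes closest to the sum of the members were Fndc5 (r = 0.942), Nol3 (0.926), Gpc1 (0.918), C1qtnf3 (0.918) and Lrrn1 (0.916). The points share 2 libraries, and the summed profile is high in tenocyte-like cells through Chodl as well as in MuSCs. Fndc5, which encodes the precursor of irisin, had 32.8 CPM in Ctrl MuSCs and 24.9 in dKO MuSCs.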

How the data were processed

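The authors sequenced 10x Chromium libraries on an Illumina HiSeq instrument and deposited raw UMI counts per gene and cell for called barcodes, 4527 in Ctrl (45556596 UMIs) and 3483 in dKO (33815155 UMIs). The submitters' processing notes name Cell Ranger 7.0.0, Seurat 4.3.0 and mm10, and the file headers Cell Ranger 3.0.2. The files hold 0 mitochondrial genes. Cells with 500 or more genes, the minimum in the study's methods, were kept, which gave its cell numbers, 4335 and 3329. The results text of the study states 200 genes and 1000 UMIs instead, which left 4295 and 3306.

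Sums of counts per library and cell class were divided by the summed UMIs of those cells and compared as ratios, with intervals from SciPy 1.17.1 (Python 3.11.15, NumPy 2.4.6, pandas 2.3.3). Calls needed 20 UMIs, a 2-fold ratio and an interval without 1. To compare shares, cells were reduced to 2000 UMIs and the expected share was computed. No doublet caller was run. Cells with a UMI of Ptprc, Pdgfra or Cdh5 were left out of MuSCs, and removal of the 7.5% of cells with most UMIs, or of cells with 3 markers of another class, was tried. The class scoring was set after the marker lists. Trac, Trbc2 and Ighm have no entry in the files. The scripts were tested on simulated data.

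The members and lists were chosen with earlier results of these data known. All members and Yy1 are named, and from each list the 3 genes with most UMIs and the 2 highest and 2 lowest ratios past the interval with 20 or more UMIs. Genes called but outside that rule (Calcr, Heyl, Bhlhe41, Mymk, Cdkn1c, Cdk1 and Ccnb2), the uncalled gene Cdkn1a, and the genes beside Myog in Ctrl, were named after their values were seen. Gene positions come from GENCODE M21 and promoters from RefSeq (GRCm38.p6), whose table holds 7 of the members used. Myod1, Msc and Megf10 promoters are not shown.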

Additional observations from a re-analysis of the deposited data

Results flagged for a closer look

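MuSCs and the FAP-like, MO/MP-like and tenocyte-like classes were compared for members whose dKO to Ctrl ratio lay on opposite sides of 1 in 2 of them, each with an interval that did not hold 1, and the difference between classes was not tested. For Sdc4 the ratios were 0.696 in MuSCs, 1.34 among FAP-like and 1.62 among MO/MP-like cells. Myf5 had 1.84 in MuSCs and 0.140 in FAP-like cells, the latter from 28 UMIs in 7 Ctrl cells and 4 in 2 dKO cells. Myog had 1.44 in MuSCs, 0.00967 among FAP-like cells (203 UMIs, 150 of them in 1 cell, and 2) and 0.160 among MO/MP-like cells (20 UMIs over 17 of 1321 cells, at most 2 a cell, and 2). The share of MO/MP-like Ctrl cells with a Myog UMI (1.29%, median depth 9078) was close to that of endothelial-like cells (1.11%, median depth 5159), which should lack the gene, so no difference is read from the MO/MP-like cells. Other cells outside MuSCs held many Myog UMIs, with 297 in 2 of 22 myofibre-like cells of Ctrl and 75 in 1 dKO cell of no class. The value in MuSCs turned to 0.308 without 1 cell of each library.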

How the results depend on the processing

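The share of MuSCs differed by -1.83 percentage points (dKO minus Ctrl) and stayed negative under each gate tried, at -1.22 with 4 rule genes and -1.24 without the 7.5% of cells with most UMIs. The count of members called lower (2, Cdh15 and Megf10) became 1 with 4 rule genes (Megf10), with Ptprc, Pdgfra and Cdh5 allowed (Cdh15), among MuSCs without Myog (Cdh15) and without the cells with most UMIs (Myog, with 72 Ctrl and 14 dKO MuSCs left), and 0 with the mean of each cell's CPM. The count called higher (0) became 1 (Myf5) without the cells with most UMIs. The median log2 ratio of the members moved from -0.16 to -0.57 with the top cell of each gene left out. That step takes a larger share of the dKO MuSCs than of the Ctrl MuSCs and so tends to lower the ratios. The log2 ratio of Myog turned from 0.52 to -2.09 without the cells with most UMIs, -0.33 with the mean per cell and -1.70 without its top cell, and that of Sdc4 from -0.52 to 0.069 with the mean per cell. Myog was also 0.12 (-0.032 to 0.27) with 2 rule genes, 0.13 (-0.0076 to 0.27) with the excluded markers allowed, 0.76 with 4 rule genes and 0.82 with Myog left out of the rule. Without cells with 3 markers of another class the count called lower stayed at 2, but Megf10 had left it (-0.90, -2.01 to 0.043) and Myog, with no dKO UMI left, had entered. Without the cells with most UMIs, the log2 ratio of Cdh15 was -0.30, with an interval of -0.87 to 0.23. For genes of the lists, calls higher (8) became 5 with 2 rule genes and 1 with 4, and calls lower (13) became 21 without cells with 3 markers of another class and 8 without the cells with most UMIs. With the top cell of each gene left out, chosen after seeing the data, they became 5 and 22.

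The log2 ratio of Sdc4 in MuSCs to other cells in Ctrl (1.23) was 1.32 with 4 rule genes, 1.10 with the excluded markers allowed, 1.41 without cells with markers of another class and 1.75 without the cells with most UMIs, and in dKO (0.23) it was 0.57 and 1.18 under the last 2. Across classes, where the alternatives were chosen after seeing the data, Msc in FAP-like cells (-1.32) moved to -1.02 and Chodl (-1.60) to -2.04 without the cells with most UMIs. Chodl in tenocyte-like cells (-0.96) moved to -0.66 with the mean per cell, and Sdc4 in FAP-like cells (0.43) to 0.36 with it and 0.49 scaled to the median ratio of genes. The cause of these moves was not tested. The other alternatives, which include 200 genes a cell and 1000 UMIs for shares, moved the shares and list summaries by less than their intervals or, for counts, by at most 1.5 times. Among single members, the mean per cell moved Pax7 from 0.11 to 0.76, Chodl from -0.07 to 0.63, Cdh15 from -1.15 to -0.28 and Myod1 from -0.10 to 0.27. Chodl was -0.56 with 2 rule genes and Msc -0.85 without its top cell. Myod1 ranged from -0.66 without the cell with most Myog UMIs to 0.55 (-0.075 to 1.13) without the cells with most UMIs. Leaving out the cells with most Myog UMIs and the MuSCs with Myog was chosen after seeing the data. Depth limits Musk and Megf10 most, with 8 and 12 UMIs in dKO MuSCs.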
